A study of Mus musculus with 12 samples.

Results

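The 9 genes Brca1, Brca2, Palb2, Atm, Prkdc, Xrcc5, Xrcc6, Lig4 and Trp53bp1 encode core proteins of DNA double-strand break repair. They were chosen by name, and each was found once in both deposited gene tables, 9 of 30803 Ensembl identifiers in the table of the GSH and WT libraries and 9 of 17558 symbols in the table of the Cas9 and Ctrl libraries. Levels of mRNA were read by sequencing in samples labelled as 4T1, a mouse mammary carcinoma line of BALB/c origin. By the labels they were grown in culture in medium with serum and given no treatment other than culture. Leukocyte, endothelial and fibroblast transcripts in the Cas9 and Ctrl libraries, given below, do not match a culture of 4T1 cells alone. The labels name 4 genotypes of 3 samples each, GSH with its counterpart WT and Cas9 with its counterpart Ctrl; they neither expand GSH nor name a gene targeted with Cas9, a promoter or a clone. Of 12 samples, 10 were analysed, namely GSH 1 to 3, WT 1 to 3, Cas9 1 to 3 and Ctrl 3, while the remaining Ctrl libraries, 1 and 2, are not analysed here. Whether replicates are separate cultures is not labelled, so p-values reflect only how far these libraries spread, which could be technical.

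A cell that has lost both strands of its DNA at one place can rejoin the ends directly or copy the lost sequence from the sister chromatid. Direct rejoining, called non-homologous end joining, starts when the Ku70 and Ku80 proteins close around a broken end and recruit the kinase DNA-PKcs, and it finishes with DNA ligase IV; copying, called homologous recombination, needs the ends to be trimmed and needs BRCA1, PALB2 and BRCA2, and it works in cells that have replicated their DNA. The kinase ATM signals the break, and 53BP1 holds back the trimming of ends and thereby favours end joining. Loss of BRCA1, BRCA2 or PALB2 predisposes to breast cancer, and BALB/c mice are known for a variant Prkdc allele that lowers DNA-PKcs.

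Xrcc5 and Xrcc6 are the members that passed the test between GSH and WT libraries. Brca1, Brca2 and Palb2 are those lowest in Cas9 1, where 23.7% of all 11407 tested genes were lowest. The promoters of these 5 genes are shown. Each runs 5′ to 3′ on the gene's own strand, from 250 bases before to 50 bases after the annotated start, in the RefSeq promoters of GRCm38.p6. They lie at chr1:72307171-72307470 on the plus strand (Xrcc5), chr15:82016119-82016418 on the plus strand (Xrcc6), chr11:101551906-101552205 on the minus strand (Brca1), chr5:150522371-150522670 on the plus strand (Brca2) and chr7:122132897-122133196 on the minus strand (Palb2).
Xrcc5: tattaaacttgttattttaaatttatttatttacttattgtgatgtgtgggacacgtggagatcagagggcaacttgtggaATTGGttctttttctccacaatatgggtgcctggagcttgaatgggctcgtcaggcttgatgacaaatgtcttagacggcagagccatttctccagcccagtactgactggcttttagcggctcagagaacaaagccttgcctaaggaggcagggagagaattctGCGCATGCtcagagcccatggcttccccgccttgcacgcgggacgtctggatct
Xrcc6: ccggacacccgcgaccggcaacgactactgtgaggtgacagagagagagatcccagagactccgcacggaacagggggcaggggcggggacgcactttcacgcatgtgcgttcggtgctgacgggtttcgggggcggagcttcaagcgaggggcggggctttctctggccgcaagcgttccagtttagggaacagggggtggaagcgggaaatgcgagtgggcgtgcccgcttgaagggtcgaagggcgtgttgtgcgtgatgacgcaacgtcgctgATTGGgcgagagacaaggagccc
Brca1: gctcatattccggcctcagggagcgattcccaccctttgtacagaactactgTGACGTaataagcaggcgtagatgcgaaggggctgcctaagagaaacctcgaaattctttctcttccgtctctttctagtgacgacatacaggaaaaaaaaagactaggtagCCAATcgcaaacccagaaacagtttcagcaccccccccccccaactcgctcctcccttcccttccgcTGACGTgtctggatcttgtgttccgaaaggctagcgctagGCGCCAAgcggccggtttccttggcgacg
Brca2: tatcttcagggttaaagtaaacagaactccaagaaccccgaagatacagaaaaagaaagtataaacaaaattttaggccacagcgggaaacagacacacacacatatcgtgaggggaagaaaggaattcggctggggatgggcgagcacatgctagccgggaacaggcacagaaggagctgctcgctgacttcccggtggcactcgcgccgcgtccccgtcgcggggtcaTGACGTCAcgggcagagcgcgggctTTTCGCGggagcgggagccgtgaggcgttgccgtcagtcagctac
Palb2: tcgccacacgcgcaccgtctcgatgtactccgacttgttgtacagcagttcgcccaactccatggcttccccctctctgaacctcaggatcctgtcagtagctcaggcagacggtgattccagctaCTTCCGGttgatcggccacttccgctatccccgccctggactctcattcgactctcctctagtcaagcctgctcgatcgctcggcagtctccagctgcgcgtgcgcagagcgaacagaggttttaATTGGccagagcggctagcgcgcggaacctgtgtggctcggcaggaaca
Capitals mark every match, on either strand, to the letters TTGGCGC or TTTCGCG (forms of the E2F motif), GCGCATGC (NRF1), TGACGT (the core of the cyclic AMP response element), CCGGAAG (ETS) and CCAAT.

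Of the 9 genes, 8 had an entry among these promoters and Prkdc had none; Lig4 had 2, which makes 9 promoters. An E2F form was found in those of Brca1 and Brca2, 2 of 9, against 3.23% of all 32851 promoters of the same length. In Brca1 the match lay on the opposite strand and began at base 22, counting the start as base 1, and in Brca2 it lay on the gene's strand and began at base 6. The NRF1 letters were found in 3 of the 9 promoters (Xrcc5, Atm and the first of Lig4), against 2.71% of all promoters. The TGACGT core was found in 3 (Brca1, Brca2 and Trp53bp1), against 7.51%, and in Brca2 matches on both strands overlap. ETS letters were found in 4 of the 9 and CCAAT in 5 of the 9, against 8.86% and 37.4% of all promoters. These matches describe the letters only.

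Libraries of the GSH and WT table held 18531444 to 30168737 reads and the Cas9 and Ctrl libraries 33152215 to 39201544 reads. These totals were counted back from annotated gene lengths and the step sizes of the FPKM values (fragments per kilobase of gene length, scaled to the library's reads). The GSH and WT libraries carried the markers of their label: 6 carcinoma markers such as Krt8 and Epcam summed to 1787 to 1952 FPKM. The 3 endothelial markers summed to at most 0.397 FPKM. Of 16 leukocyte markers 15 were found and summed to 18.4 to 27.6 FPKM, with 11 under 1 FPKM in every library and none at 0 in all. The 4 fibroblast markers summed to 2.98 to 24.1 FPKM, with 1 under 1 FPKM in every library. The Cas9 and Ctrl libraries held more than carcinoma cells, since the 16 leukocyte markers summed to 1905 to 3587 FPKM, with 3 under 1 FPKM in every library and none at 0 in all, beside 1768 to 2760 FPKM for the carcinoma markers. In such mixed bulk samples fewer cells of a type and less RNA per cell cannot be told apart. Mitochondrial genes took 5.72 to 6.10% of reads in GSH libraries and 8.17 to 8.48% in WT libraries. GSH 2, GSH 3 and WT 3 stood apart by secretory transcripts such as Obp1a and Mup4, which summed to 142 to 363 FPKM there and to 1.11 to 5.15 FPKM in the other 3.

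In cultured 4T1 cells the genes for the Ku proteins were the most abundant of the 9, and Prkdc, for the kinase Ku recruits, was the least abundant. In WT libraries the mean level per length fell in the order Xrcc5 (20.1 FPKM), Xrcc6 (12.7), Brca1 (8.97), Brca2 (4.59), Atm (4.34), Trp53bp1 (4.22), Palb2 (3.11), Lig4 (3.02) and Prkdc (2.76). Atm and Trp53bp1 overlapped between libraries, as did Palb2 and Lig4, and the other neighbours in this order did not. In GSH libraries the order was Xrcc5, Xrcc6, Brca1, Atm, Brca2, Trp53bp1, Lig4, Palb2 and Prkdc, where Atm overlapped with Brca2 and Lig4 with Palb2. Among the 16243 symbols that both tables hold, Xrcc5 stood between the percentiles 85.4 and 88.3 of the 6 libraries and Prkdc between 46.8 and 49.1. Between 269 reads (Lig4) and 2360 reads (Brca1) lay behind each value, which gives a counting error of 6.10% and 2.06% of the value; this covers counting only.

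GSH libraries held more Xrcc5 and Xrcc6 transcript than WT libraries, and no other member passed the test. Xrcc5 rose by 16.3% and Xrcc6 by 12.1% in the means, while the levels of Brca1, Brca2, Lig4 and Trp53bp1 lay within 2% of each other between the groups' means. With limma on log2(FPKM + 1) and Benjamini-Hochberg adjustment over 12283 genes at 0.05, 2 of the 9 members were called, both higher, a share of 22.2%. Over all tested genes 37% were called, 20.6% higher in GSH and 16.4% lower, so the members' share is not above that of the transcriptome. The members' median change was 0.01 on the log2 scale, beside 0.02 for all tested genes. The groups did not overlap for 5 of the 9 (Xrcc5, Xrcc6, Atm, Prkdc and Palb2), beside 52.5% of all tested genes, and 3 of the 9 (Xrcc5, Xrcc6 and Atm) had an unadjusted p under 0.05, beside 47.9%.

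**Figure D1:**
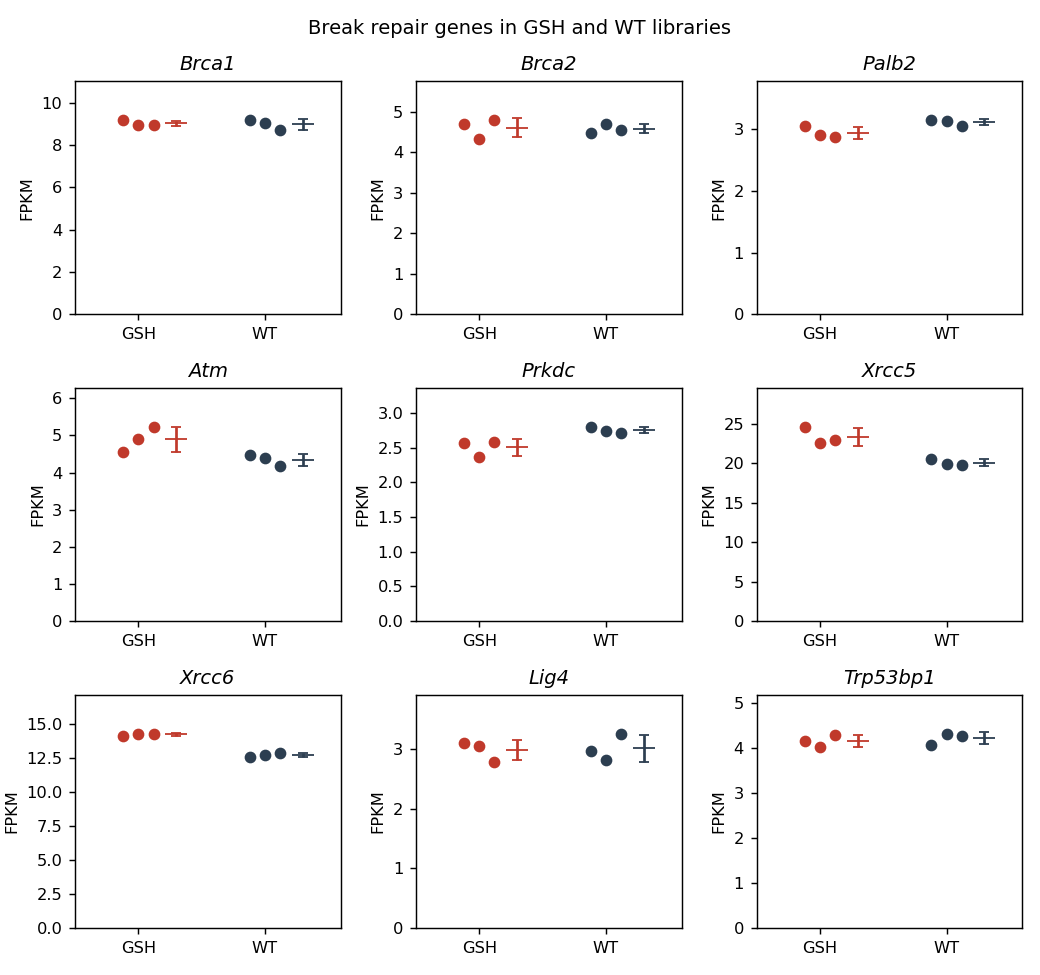
FPKM (vertical axis, starting at 0) of each of the 9 genes in the 3 GSH libraries (red points, left) and the 3 WT libraries (dark points, right), with the group mean and SD as a bar beside them. Xrcc5 and Xrcc6 stand higher in every GSH library than in any WT library, and the Brca1 points of the groups overlap.

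Ku80, encoded by Xrcc5, is the larger Ku subunit, which contacts DNA-PKcs. Xrcc5 stood at 24.6, 22.5 and 22.9 FPKM in GSH 1 to 3, against 20.5, 19.9 and 19.8 FPKM in WT 1 to 3. All GSH libraries lay above all WT libraries, and GSH 1 was the highest. The means were 23.4 ± 1.11 FPKM in GSH and 20.1 ± 0.394 FPKM in WT (SD, n = 3 each), a log2 change of 0.21 (SE 0.04, limma adjusted p = 0.00907). It passed in each of 14 settings, with adjusted p between 0.00263 and 0.0303. Among the libraries with secretory transcripts it was 22.5 and 22.9 FPKM in GSH, against 19.8 in WT 3, and among the others 24.6 FPKM in GSH 1, against 20.5 and 19.9 in WT.

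Xrcc6 encodes Ku70, the partner without which Ku80 is unstable. Its level was 14.2, 14.3 and 14.3 FPKM in GSH libraries, against 12.6, 12.7 and 12.9 FPKM in WT libraries. The GSH libraries were nearly identical and lay above every WT library. The means were 14.3 ± 0.0906 FPKM in GSH and 12.7 ± 0.164 FPKM in WT (SD, n = 3 each), a log2 change of 0.15 (SE 0.03, limma adjusted p = 0.00623), and the gene passed in each of the 14 settings with adjusted p between 0.00431 and 0.0281. Exons of Desi1 on the opposite strand cover 7.69% of its exonic bases, and Desi1 averaged 14.5 FPKM in GSH and 13.2 FPKM in WT; the strand handling of the counts is not given in the sources used here, so reads of this stretch may belong to either gene. Taking mitochondrial genes out of the library total left a log2 change of 0.17 for Xrcc5 and 0.12 for Xrcc6.

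Prkdc, for DNA-PKcs, did not pass the test. Its level was 2.57, 2.37 and 2.59 FPKM in GSH libraries, against 2.80, 2.75 and 2.72 FPKM in WT libraries. All GSH libraries lay below all WT libraries, but the log2 change of -0.10 (SE 0.05, 95% interval -0.21 to 0.01) did not pass (limma adjusted p = 0.135). On whole reads recovered from the FPKM values, tested with limma's voom, Prkdc passed with an adjusted p of 0.0471, in a setting that called 42.2% of all tested genes. Within each library, the log2 ratio of Prkdc to Xrcc5 (on FPKM + 1), the kinase to the Ku subunit it contacts, averaged -2.79 in GSH and -2.49 in WT, a difference of -0.31. The 3 GSH ratios were all below the 3 WT ratios, which is the smallest two-sided p of 0.1 that an exact permutation test of 3 against 3 allows (0.233 after adjustment over the 7 ratios computed). That separation was fixed beforehand, since every GSH library lay above every WT library for Xrcc5 and below for Prkdc. The ratio therefore adds no support to a change of Prkdc.

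The ratio of Xrcc6 to Xrcc5, by contrast, differed by -0.05 on the log2 scale (exact permutation p = 0.4), within the spread of the libraries. Lig4, whose product seals the ends together with XRCC4, had 3.10, 3.05 and 2.79 FPKM in GSH libraries, against 2.98, 2.81 and 3.26 FPKM in WT libraries. The groups overlapped, and the interval of the log2 change ran from -0.15 to 0.13 (limma adjusted p = 0.880). Its ratio to Xrcc4, which averaged 1.23 ± 0.0981 FPKM in GSH and 1.17 ± 0.0635 FPKM in WT (SD, n = 3 each), differed by -0.05 (exact permutation p = 0.4).

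Trp53bp1, for 53BP1, had 4.16, 4.01 and 4.28 FPKM in GSH libraries, against 4.07, 4.32 and 4.27 FPKM in WT libraries. The groups overlapped, with a log2 change of -0.02 (95% interval -0.11 to 0.08, limma adjusted p = 0.733). Exons of Tubgcp4 on the opposite strand cover 15.0% of its exonic bases, and Tubgcp4 averaged 5.12 FPKM in GSH and 4.90 FPKM in WT.

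None of the genes of the recombination arm passed the test. Brca1, whose product promotes end trimming and brings PALB2 to breaks, had 9.17, 8.96 and 8.94 FPKM in GSH libraries, against 9.19, 9.03 and 8.70 FPKM in WT libraries. The groups overlapped, and the log2 change of 0.01 had a 95% interval of -0.07 to 0.08 (limma adjusted p = 0.874). Brca2, for a protein that acts on the trimmed single strand, had 4.69, 4.34 and 4.80 FPKM in GSH libraries, against 4.49, 4.71 and 4.56 FPKM in WT libraries. The WT libraries lay inside the range of the GSH libraries, and the interval ran from -0.10 to 0.11 (limma adjusted p = 0.928). The sign of these changes turned with the setting, being positive in 10 of 14 for Brca1 and in 9 of 14 for Brca2.

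Palb2, for the bridge between BRCA1 and BRCA2, had 3.05, 2.91 and 2.87 FPKM in GSH libraries, against 3.15, 3.12 and 3.05 FPKM in WT libraries. The lowest WT library lay just above the highest GSH library, and the log2 change of -0.06 (95% interval -0.16 to 0.04) did not pass (limma adjusted p = 0.282). Palb2 over Brca2 differed by -0.07 on the log2 scale (exact permutation p = 0.3). Bard1, whose product is the obligate partner of BRCA1, averaged 11.3 ± 0.495 FPKM in GSH and 12.3 ± 0.652 FPKM in WT (SD, n = 3 each; log2 change -0.12, limma adjusted p = 0.103). The log2 ratio of Brca1 to Bard1 averaged -0.29 in GSH and -0.41 in WT, with all GSH libraries above all WT libraries (exact permutation p = 0.1, adjusted 0.233). Brca1 over Trp53bp1, whose products oppose each other at the choice of pathway, differed by 0.03 (exact permutation p = 0.7). The mean log2 level of the 3 recombination genes minus that of Prkdc, Xrcc5, Xrcc6, Lig4 and Trp53bp1 was -0.34 in GSH and -0.28 in WT, again with no overlap (exact permutation p = 0.1, adjusted 0.233). Among the genes subtracted, Xrcc5 (log2 change 0.21) and Xrcc6 (0.15) rose, while Prkdc (-0.10), Lig4 (-0.01) and Trp53bp1 (-0.02) did not. This ratio thus re-uses the Ku result and does not show a shift between the arms.

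Atm, for the kinase that signals the break, had 4.57, 4.91 and 5.24 FPKM in GSH libraries, against 4.47, 4.38 and 4.17 FPKM in WT libraries. All GSH libraries lay above all WT libraries, by little in GSH 1. The log2 change of 0.14 (SE 0.05, 95% interval 0.02 to 0.27) did not pass (limma adjusted p = 0.0720). It passed without GSH 1 (adjusted p = 0.0415, log2 change 0.18) and with voom on recovered reads (adjusted p = 0.0330); over all settings the adjusted p lay between 0.0330 and 0.184, with a positive change in each.

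**Figure D2:**
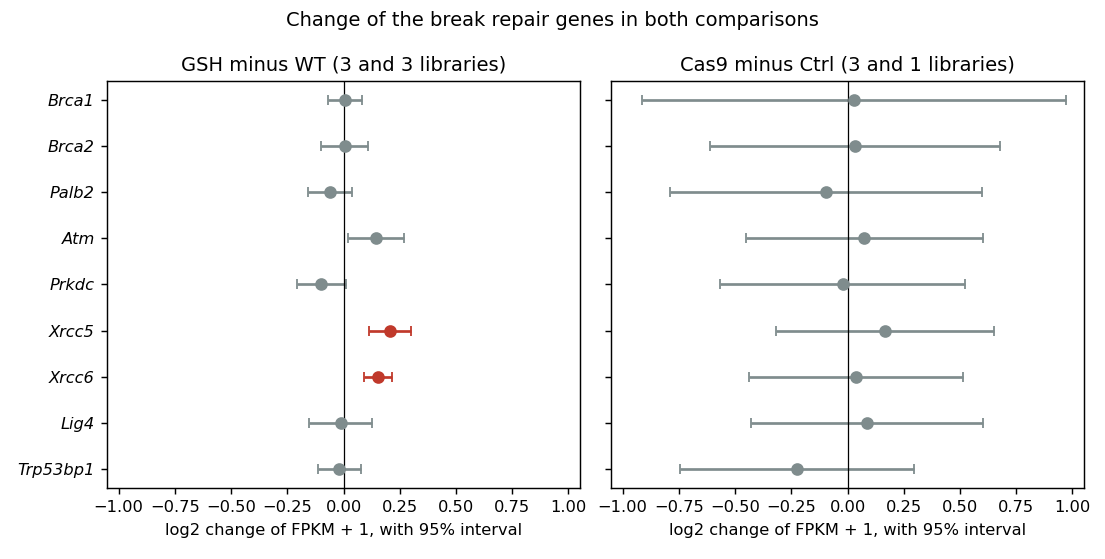
Log2 change of FPKM + 1 for each of the 9 genes with its 95% interval (horizontal axis), for GSH minus WT (left, 3 and 3 libraries) and Cas9 minus Ctrl (right, 3 and 1 libraries); red marks genes that passed at an adjusted p of 0.05. Xrcc5 and Xrcc6 pass on the left, and every interval on the right includes 0.

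Around the 9 members, 78 further break repair genes in 8 lists were followed, of which 77 were found and 72 tested. In GSH libraries 12 of them were higher and 11 lower, and 49 did not pass, a called share of 31.9% beside 37% for all tested genes; their median change was -0.01 on the log2 scale. Proliferation markers changed in both directions: 10 of 15 were higher in GSH and 3 (Mki67, Bub1 and Aurkb) lower, a called share of 86.7%. Over all tested genes 20.6% were called higher and 16.4% lower. The 15 markers summed to 797 to 802 FPKM in GSH libraries, against 723 to 743 FPKM in WT libraries. Their part in the changes of repair genes was not tested.

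Among the 11 genes of end sensing and resection, 5 were higher in GSH and none lower, a called share of 45.5%. Over all tested genes 37% were called, 20.6% higher in GSH and 16.4% lower. Rpa1, for the largest subunit of the protein that coats single-stranded DNA, averaged 32.8 ± 0.425 FPKM in GSH and 25.3 ± 1.03 FPKM in WT (log2 change 0.37, limma adjusted p = 0.00178). Rad50 and Mre11a encode partners in the complex that first senses and trims ends. Rad50 averaged 15.5 ± 0.398 FPKM in GSH and 13.8 ± 0.305 FPKM in WT (0.15, limma adjusted p = 0.0118), and Mre11a 16.9 ± 0.511 FPKM in GSH and 14.9 ± 0.763 FPKM in WT (0.18, limma adjusted p = 0.0218). Each of these means has n = 3 with its SD. Mre11a lost its call without GSH 1 (adjusted p = 0.0628), GSH 3 (0.0582), WT 1 (0.0701) or WT 2 (0.0610), with no filter (0.0561) and with a term for GSH 2, GSH 3 and WT 3 (0.0515).

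Genes of homologous recombination moved in both directions. Rad52, which in mammals anneals single strands, showed the largest change among the named genes of the lists: 2.49, 2.45 and 2.46 FPKM in GSH libraries, against 4.13, 4.11 and 3.97 FPKM in WT libraries. The groups were far apart beside their spread, with a log2 change of -0.55 (SE 0.04, limma adjusted p = 0.00123). Rad54l, for a motor protein of recombination, averaged 4.73 ± 0.416 FPKM in GSH and 6.11 ± 0.172 FPKM in WT (-0.31, limma adjusted p = 0.00806). Swi5, for an accessory factor of recombination, was higher, with 15.5 ± 0.612 FPKM in GSH and 13.7 ± 0.336 FPKM in WT (0.16, limma adjusted p = 0.0161), and lost its call without WT 1 (adjusted p = 0.0561).

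Of 11 genes of the BRCA1-A complex and the chromatin response, 2 were higher and 2 lower, 36.4% called beside 37% of all tested genes. H2afx, for the histone variant that ATM phosphorylates beside breaks, averaged 32.6 ± 1.43 FPKM in GSH and 24.1 ± 0.470 FPKM in WT (0.42, limma adjusted p = 0.00178). Babam1 and Uimc1 encode subunits of the same BRCA1-A complex and moved in opposite directions. Babam1 averaged 28.1 ± 0.562 FPKM in GSH and 25.3 ± 0.566 FPKM in WT (0.15, limma adjusted p = 0.0111), and Uimc1 5.87 ± 0.102 FPKM in GSH and 6.57 ± 0.175 FPKM in WT (-0.14, limma adjusted p = 0.0186). Uimc1 lost its call without GSH 2 (adjusted p = 0.0509), GSH 3 (0.0582) or WT 3 (0.0566).

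Of 9 tested partners of end joining, none was higher in GSH and 2 were lower. That is 22.2% called, below the 37% of all tested genes. Polm, for a gap-filling polymerase, averaged 20.1 ± 0.918 FPKM in GSH and 24.1 ± 0.964 FPKM in WT (-0.25, limma adjusted p = 0.00706). Dclre1c, for the Artemis nuclease that DNA-PKcs activates, averaged 2.31 ± 0.0742 FPKM in GSH and 2.80 ± 0.0210 FPKM in WT (-0.20, limma adjusted p = 0.0135). Poll, for a related polymerase, had a log2 change of -0.12 that did not pass (limma adjusted p = 0.0557) but passed under median-ratio scaling (0.0499) and with mitochondrial genes out of the total (0.0266).

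Of 8 genes of polymerase theta and PARP1 dependent joining, 3 were higher and 1 lower. Parp1, for the main enzyme that marks broken DNA with poly(ADP-ribose), averaged 30.6 ± 0.374 FPKM in GSH and 25.6 ± 0.345 FPKM in WT (0.25, limma adjusted p = 0.00195). Parp2, for its smaller relative, went the other way, with 22.5 ± 0.664 FPKM in GSH and 28.0 ± 0.792 FPKM in WT (-0.31, limma adjusted p = 0.00223). Lig1, for the ligase of the replication fork, averaged 26.9 ± 0.0900 FPKM in GSH and 23.2 ± 0.424 FPKM in WT (0.21, limma adjusted p = 0.00272).

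The shieldin list had 2 tested genes. Mad2l2, for the REV7 subunit through which shieldin acts after 53BP1, averaged 6.97 ± 0.321 FPKM in GSH and 7.73 ± 0.166 FPKM in WT (-0.13, limma adjusted p = 0.0423); its call was lost without any one of GSH 1, GSH 3, WT 1, WT 2 and WT 3 (adjusted p 0.0712 to 0.111) and with no filter (0.101). Rif1, the other, had a log2 change of -0.10 that did not pass (limma adjusted p = 0.160).

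Of 7 genes of junction resolution, 2 were lower and none higher, 28.6% called, below the 37% of all tested genes. These 2 encode the partners of a single nuclease. Eme1 averaged 17.6 ± 0.629 FPKM in GSH and 20.6 ± 0.283 FPKM in WT (-0.22, limma adjusted p = 0.00467), and Mus81 8.73 ± 0.191 FPKM in GSH and 10.3 ± 0.392 FPKM in WT (-0.21, limma adjusted p = 0.00649). Slx1b, for another junction nuclease, had a log2 change of -0.18 that did not pass (limma adjusted p = 0.0935). Of 10 genes of the checkpoint kinases and their clamp, Hus1 was higher, with 6.41 ± 0.0662 FPKM in GSH and 5.65 ± 0.0788 FPKM in WT (0.16, limma adjusted p = 0.00925). Rad9a, for a partner in the same clamp, was lower, with 37.5 ± 0.499 FPKM in GSH and 43.3 ± 1.59 FPKM in WT (-0.20, limma adjusted p = 0.00565). Atr, for the kinase of single-stranded DNA, had a log2 change of -0.14 that did not pass (limma adjusted p = 0.0550); it passed without WT 3 (0.0482), with voom on recovered reads (0.00555) and under both other scalings (0.0366 and 0.0326).

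**Figure D3:**
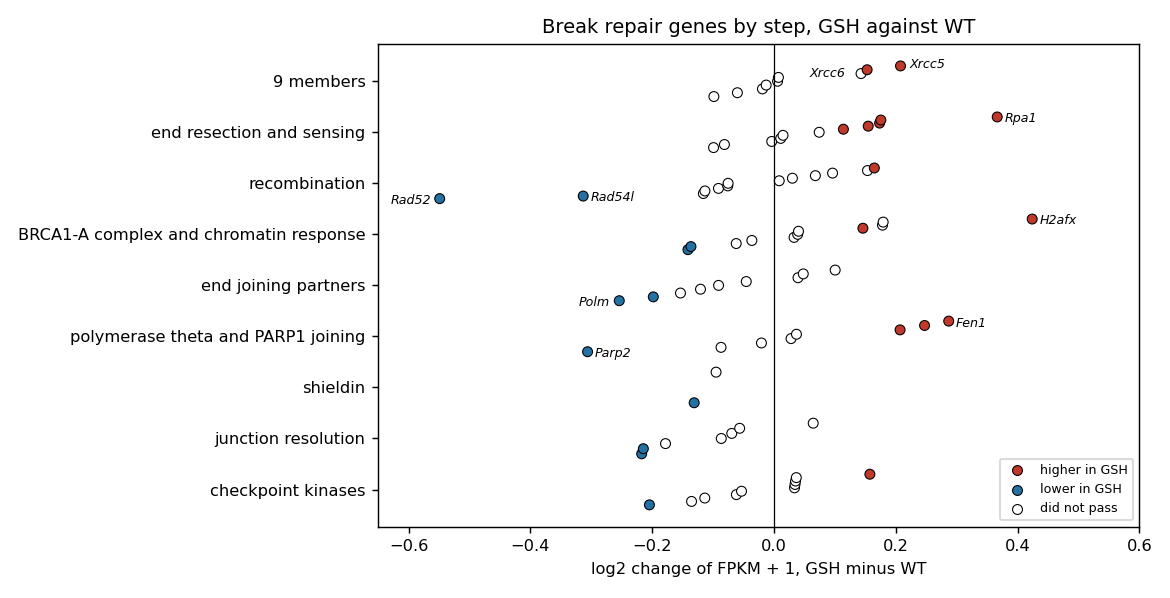
Log2 change of FPKM + 1, GSH minus WT (horizontal axis), of the tested genes reported here, in rows for the 9 members and 8 further lists; red points passed as higher in GSH, blue as lower, and white did not pass. Rad52 at -0.55 and H2afx at 0.42 are the extremes, and the members lie between -0.10 and 0.21.

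Across the 6 GSH and WT libraries, the mean of the 9 members' standardised log2 levels was highest in GSH 1 (0.43) and lowest in GSH 2 (-0.38), so it did not separate the groups. The genes whose pattern was most like it, among 6841 candidates, were Zfp91 (Pearson r = 0.969), Nampt (0.969), Ska3 (0.961), Fam126a (0.957) and Skil (0.956). These values describe 6 libraries that share their depth and scaling between genes.

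In the Cas9 and Ctrl libraries no member passed the test, and the intervals were wide, since Ctrl had 1 library. Of the 9 members, 3 (Brca1, Brca2 and Palb2) were lowest in Cas9 1, or 33.3%, beside 23.7% of all 11407 tested genes. With limma 0 of the 9 members passed, beside 0 of 11407 tested genes (0%), and 0 members had an unadjusted p under 0.05, beside 1.84% (210 genes) of all tested. With voom on recovered reads, 0 genes passed and 193 had an unadjusted p under 0.05. Of the further repair genes, 71 were tested and 0 passed. Ctrl 3 lay outside the Cas9 range for 3 of the 9 (Xrcc5, Lig4 and Trp53bp1), beside 42.6% of all tested genes. Reads behind the members ran from 129 (Palb2) to 3454 (Trp53bp1).

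Brca1 had 1.66, 3.24 and 3.52 FPKM in Cas9 1 to 3, against 2.63 FPKM in Ctrl 3. Brca2 had 1.10, 1.497 and 1.69 FPKM in Cas9 1 to 3, against 1.36 FPKM in Ctrl 3. Palb2 had 0.914, 1.35 and 1.58 FPKM in Cas9 1 to 3, against 1.42 FPKM in Ctrl 3. All 3 recombination genes were lowest in Cas9 1 and highest in Cas9 3, with Ctrl 3 inside the Cas9 range. The log2 change was 0.03 for Brca1 (95% interval -0.91 to 0.97), 0.03 for Brca2 (-0.61 to 0.68) and -0.10 for Palb2 (-0.79 to 0.60). Without Cas9 1 the change was 0.27 for Brca1, 0.13 for Brca2 and 0.02 for Palb2, none of which passed.

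Cas9 1 held 0.490 of the mean Brca1 level of Cas9 2 and Cas9 3, 0.691 of that of Brca2 and 0.624 of that of Palb2. These were 3 of the 9 members with their lowest level in Cas9 1, beside 23.7% of all 11407 tested genes, and 38 of 71 further repair genes (53.5%) were lowest there. Of the 15 proliferation markers, 14 were lowest in Cas9 1 (Mcm2 was not), with a median ratio of 0.586 to the mean of Cas9 2 and Cas9 3, where the median of all genes was 1.02. The proliferation markers summed to 375, 518 and 639 FPKM in Cas9 1 to 3, against 527 FPKM in Ctrl 3. Carcinoma markers summed to 1768, 2243 and 2760 FPKM in Cas9 1 to 3, against 2222 FPKM in Ctrl 3.

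Markers of other cells had no single order over these libraries. The 16 leukocyte markers summed to 3587, 2485 and 1905 FPKM in Cas9 1 to 3, against 3009 FPKM in Ctrl 3, but most of this was Lyz2, a gene of macrophages and other myeloid cells, with 3048, 2001 and 1035 FPKM, against 2536 FPKM. Without Lyz2 the other 15 summed to 539, 484 and 871 FPKM in Cas9 1 to 3, against 473 FPKM in Ctrl 3, so that Cas9 3 was highest. S100a8 and S100a9, genes of neutrophils, were highest in Cas9 3, with 239 and 425 FPKM there. Endothelial markers were highest in Cas9 1, with sums of 102, 44.3 and 66.0 FPKM in Cas9 1 to 3, against 53.6 FPKM in Ctrl 3, and fibroblast markers summed to 348, 1078 and 319 FPKM, against 707 FPKM. The part of cell makeup in the low levels was not tested.

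**Figure D4:**
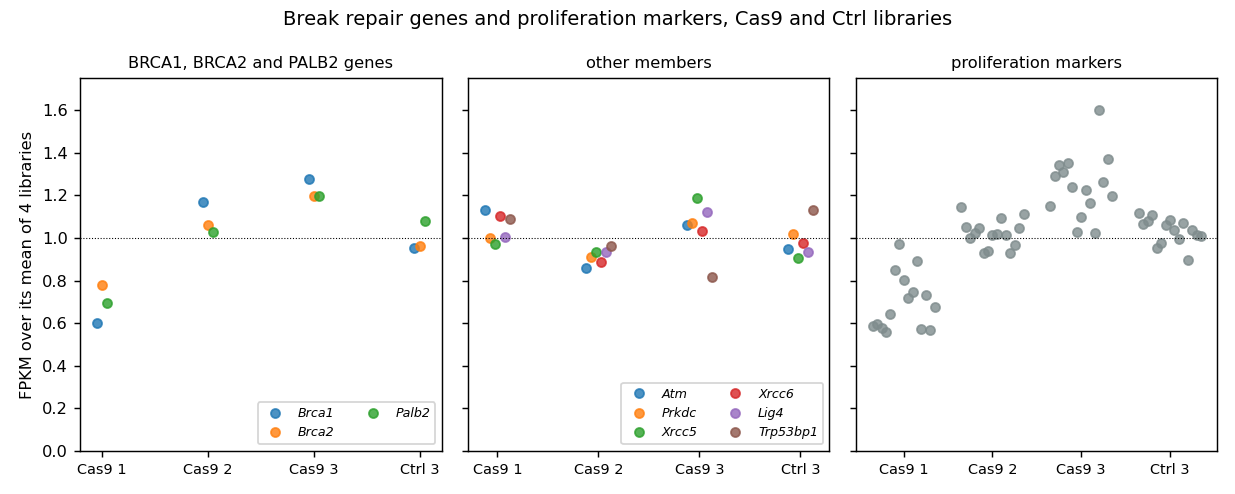
FPKM of each gene divided by its mean over the 4 libraries (vertical axis, dotted line at 1) in Cas9 1 to 3 and Ctrl 3, for Brca1, Brca2 and Palb2 (left), the other 6 members (middle) and 15 proliferation markers (right). The first 3 genes stand at 0.599 to 0.779 in Cas9 1. They are lowest there, as are 14 of the 15 markers and 23.7% of all 11407 tested genes.

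The other 6 members varied less. Xrcc5 had 17.0, 16.3 and 20.8 FPKM in Cas9 1 to 3, against 15.9 FPKM in Ctrl 3. Xrcc6 had 6.58, 5.29 and 6.17 FPKM in Cas9 1 to 3, against 5.81 FPKM in Ctrl 3. Ctrl 3 lay below all Cas9 libraries for Xrcc5 and among them for Xrcc6; the log2 changes were 0.17 (95% interval -0.32 to 0.65) and 0.04 (-0.44 to 0.51), so neither a rise of the size seen in GSH nor its absence can be read from them. Prkdc had 1.49, 1.36 and 1.59 FPKM in Cas9 1 to 3, against 1.51 FPKM in Ctrl 3, and Lig4 had 2.26, 2.11 and 2.53 FPKM, against 2.11 FPKM in Ctrl 3. For Prkdc the Ctrl library lay among the Cas9 libraries, and for Lig4 it was level with the lowest of them.

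Atm had 5.46, 4.15 and 5.13 FPKM in Cas9 1 to 3, against 4.59 FPKM in Ctrl 3. Trp53bp1 had 7.94, 6.999 and 5.95 FPKM in Cas9 1 to 3, against 8.25 FPKM in Ctrl 3. Atm was highest in Cas9 1, and Trp53bp1 was lower in each Cas9 library than in Ctrl 3, with a log2 change of -0.22 (95% interval -0.74 to 0.30).

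The 2 tables were made with different gene lengths, 7342 against 3949 bases for Palb2 and 4476 against 6058 bases for Xrcc6, so FPKM values cannot be set side by side between them and no test was made. Reads scaled to library size alone (RPM) are not divided by length, but they still depend on the exonic bases counted for each gene. The Cas9 and Ctrl totals behind them rest on gene lengths that matched for 2.03% of genes, against 96.3% for GSH and WT. In RPM, Brca1 ran from 74.3 to 78.4 in the GSH and WT libraries and from 11.5 to 24.5 in the Cas9 and Ctrl libraries. Brca2 (59.2 to 65.5 in GSH and WT, 12.4 to 19.0 in Cas9 and Ctrl), Palb2 (21.0 to 23.1 and 3.61 to 6.23), Prkdc (31.2 to 37.0 and 17.8 to 21.0), Xrcc6 (56.3 to 64.1 and 32.1 to 39.8) and Lig4 (14.5 to 17.0 and 8.93 to 10.7) were likewise lower in the Cas9 and Ctrl libraries. Trp53bp1 was higher there, with 56.8 to 61.2 in the GSH and WT libraries and 63.5 to 88.1 in the Cas9 and Ctrl libraries. The ranges overlapped for Atm (43.1 to 54.1 in GSH and WT, 50.8 to 66.9 in Cas9 and Ctrl) and for Xrcc5 (50.4 to 62.8 and 46.0 to 60.2). The order of levels within Cas9 libraries was Xrcc5, Trp53bp1, Xrcc6, Atm, Brca1, Lig4, Prkdc, Brca2 and Palb2 by FPKM, with Trp53bp1, Xrcc6 and Atm overlapping in turn, Brca1 overlapping with Lig4, and Prkdc, Brca2 and Palb2 overlapping in turn. By FPKM, Brca1 thus followed both Ku genes in GSH and WT libraries. It stood below Trp53bp1 and Atm in Cas9 libraries, where leukocyte markers are abundant. The 2 orders rest on different gene lengths, and the part of cell makeup was not tested.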

How the data were processed

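Values of 10 RNA sequencing libraries were analysed: 3 GSH, 3 WT, 3 Cas9 and 1 Ctrl. Titles gave the groups and the replicate numbers. The submitters' processing notes name HISAT2 (2), Bowtie2 (2.2.3) and HTSeq (0.6.0), without a role for each. Neither labels nor headers state a unit; the authors' deposited values were read as FPKM from the values themselves, since they step in whole multiples of 1 read. Whole reads were recovered for 99.3% of GSH and WT genes above 0 and for 94.1% of Cas9 and Ctrl genes. The steps of the values gave them within 0.003 read, except for 3516 GSH and WT genes. For those, annotated gene lengths gave whole reads within 0.15 read. A divisor shared by all 4 Cas9 and Ctrl libraries would go undetected. The 2 tables were scaled separately and tested separately.

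The main test was limma 3.58.1 (R 4.3.3), lmFit and eBayes with a trend, two-sided, on log2(FPKM + 1), a scale that understates changes of low genes. Genes with a mean of 1 FPKM or more were tested, with Benjamini-Hochberg adjustment at 0.05. In Cas9 against Ctrl all 2 residual degrees of freedom come from Cas9 libraries. The test was checked on simulated data with known changes and 1 fixed spread for all genes. Members spread more widely among the Cas9 libraries (8.05% of the mean for Prkdc to 35.9% for Brca1). The check therefore says little about Cas9 against Ctrl. Alternatives were a pseudocount of 0.1, no filter, median-ratio scaling, totals without mitochondrial genes, a replicate block, a term for GSH 2, GSH 3 and WT 3, voom on recovered reads, and leaving out each library. Ratios were compared by exact permutation. Named genes were the 9 members, the 3 of each further list with the smallest p in GSH against WT, partners used in ratios, and the 5 genes most like the members' pattern; markers were named besides, and 1 item is not reported here. Members and lists were chosen with earlier results of these data known. Of the GSH and WT identifiers, 30190 matched a symbol. Promoters came from RefSeq on GRCm38.p6; exon overlaps came from GENCODE gene models.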

Additional observations from a re-analysis of the deposited data

How the results depend on the processing

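For GSH against WT, Xrcc5 and Xrcc6 passed under all 13 alternatives, and no named gene changed sign after passing. The number of members called was 4 with voom on recovered reads (Atm and Prkdc besides), against 2 in the main test; voom called 5187 of all 12283 genes (42.2%), close to 4 of 9 (44.4%). It was 2 to 3 when 1 library was left out. All genes called fell to between 2998 (without WT 1) and 3671 when 1 library was left out, against 4547, and numbered 3086 with no filter; fewer libraries or more tested genes make the adjustment harder to pass. Further repair genes called numbered 16 to 20 with 1 library left out, against 23. Of all genes called, 55.7% were higher in GSH, against 49.2% under median-ratio scaling and 42.8% with mitochondrial genes out of the total. For Cas9 against Ctrl no setting called a gene.

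Whether replicate numbers pair the samples was not settled. Deviations of same-numbered GSH and WT libraries correlated at 0.479, -0.107 and 0.209. GSH 1 and GSH 3 correlated best with the WT library of their own number, but GSH 2 correlated best with WT 3 (0.393). GSH 2, GSH 3 and WT 3 share the secretory transcripts. With the replicate block 3867 genes were called, with 2 members and 20 further repair genes. No paired analysis was possible for Cas9 against Ctrl because the groups share 1 number. Depth limits Palb2 in the Cas9 and Ctrl libraries most, where 129 reads give a counting error of 8.80%.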
